A study of Homo sapiens with 6 samples.

Results

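The interferon receptor chains, the kinases bound to them and their feedback inhibitor form the receiving end of interferon signalling, and 10 genes of it were described here. They were chosen by symbol, IFNAR1, IFNAR2, IFNGR1, IFNGR2, IFNLR1, IL10RB, JAK1, JAK2, TYK2 and SOCS1, and all 10 were found among the 15598 genes of the deposited table. RNA was sequenced from MHCC97H, a highly metastatic human hepatocellular carcinoma line. In the 3 shHNRNPC libraries the cells held a short hairpin RNA that targets HNRNPC, whose product hnRNP C binds nascent transcripts in the nucleus, and in the 3 shcontrol libraries they held a control hairpin. The labels tell apart 1 hairpin against HNRNPC in 1 cell line, and give no agent, dose or time. The design text calls the replicates independent and does not say whether they were separate cultures, so the p-values below measure the spread between these libraries, which may be technical. In bulk RNA, fewer cells expressing a gene and less of its RNA per cell cannot be told apart.

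Each class of interferon is bound by a pair of receptor chains, and each chain holds a Janus kinase. IFNAR1, which holds TYK2, and IFNAR2, which holds JAK1, bind type I interferon. IFNGR1, which holds JAK1, and IFNGR2, which holds JAK2, bind interferon gamma, the type II interferon. IFNLR1, which holds JAK1, and IL10RB, which holds TYK2, bind the type III or lambda interferons, and IL10RB also serves the receptors for IL-10 and IL-22. When ligand brings the chains together, the kinases phosphorylate the receptor and the STAT proteins, which switch on target genes. SOCS1 is one of these targets, and its protein binds the kinases and inhibits them.

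Promoter windows of the 10 genes were searched for letters resembling the sites read by these factors. The ISRE-like letters, TTTC and again TTTC with any 2 bases between, resemble the element bound by STAT and IRF proteins after type I interferon. The GAS-like letters TTCNNNGAA resemble the element bound by STAT dimers. Both strands were searched, where the ISRE-like letters read GAAA, any 2 bases and GAAA, and the GAS-like letters are their own reverse complement. RefSeq windows from GRCh38.p14, reaching from 250 bases before to 50 bases after a start, were found for 9 of the 10 genes, with 16 windows in all. Of the 35116 windows in the table, 3.57% held the ISRE-like letters and 7.66% the GAS-like letters. Counted by gene, over any of its windows, the shares were 4.38% and 9.38% of 27305 genes. The 250 bases before the start are given for the 2 tested genes of the 10 that held a match there, SOCS1 (chr16:11256205-11256454, minus strand) and IFNLR1 (chr1:24187290-24187539, minus strand). They are written 5′ to 3′ along the gene, with the match in capitals.
SOCS1: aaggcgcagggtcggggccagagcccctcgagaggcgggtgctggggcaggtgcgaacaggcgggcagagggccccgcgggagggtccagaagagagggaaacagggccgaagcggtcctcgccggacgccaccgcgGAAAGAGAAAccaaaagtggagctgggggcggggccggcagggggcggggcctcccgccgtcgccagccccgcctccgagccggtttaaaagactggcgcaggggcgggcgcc
IFNLR1: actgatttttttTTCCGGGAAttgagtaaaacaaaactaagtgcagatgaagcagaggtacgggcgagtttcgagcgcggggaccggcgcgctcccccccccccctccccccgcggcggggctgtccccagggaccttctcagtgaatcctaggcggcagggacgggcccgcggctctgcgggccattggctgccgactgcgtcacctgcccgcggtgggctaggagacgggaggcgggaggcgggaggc
The SOCS1 match is ISRE-like, on the strand opposite to the gene, from 113 to 104 bases before the start. The IFNLR1 match is GAS-like, from 238 to 230 bases before the start. IL10RB held a GAS-like match from 12 to 20 bases after its start. No match to either set of letters was found in the windows of the other 6 genes that had one. These matches describe letters only, no binding was measured, and no relation of a match to the fold change was tested.

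The 6 libraries held 16692497 to 17889820 counts in the shHNRNPC cells and 15563077 to 18328475 in the shcontrol cells. Levels below are given as CPM, the counts of a gene for every 1000000 counts of its library. HNRNPC itself fell to 62.3 ± 3.80 CPM in shHNRNPC cells, against 853 ± 4.76 CPM in shcontrol cells (SD, n = 3 each), or -3.77 as a log2 fold change (SE 0.030, edgeR adjusted p = 5.04e-55). Of 14 hepatocyte and liver cancer markers, the keratins KRT8 and KRT18 were at 1 CPM or more, while the defining markers ALB, AFP, TTR and APOA1 were below that or not listed. The summed level of the hepatocyte list was 1555 to 1575 CPM in shHNRNPC libraries and 1359 to 1383 CPM in shcontrol libraries, nearly all of it keratin. None of 8 leukocyte markers and none of 5 endothelial markers reached 1 CPM. Summed leukocyte markers were 0.974 to 1.65 CPM in shHNRNPC libraries and 0.592 to 1.202 CPM in shcontrol libraries. Summed endothelial markers were 1.43 to 2.09 CPM in shHNRNPC libraries and 1.65 to 2.47 CPM in shcontrol libraries. Of 6 fibroblast markers COL1A1 and PDGFRB reached 1 CPM, and the sum was 19.5 to 20.9 CPM in shHNRNPC libraries and 18.9 to 21.3 CPM in shcontrol libraries.

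Across the 10 genes the feedback inhibitor rose, the receptor chains IFNAR1, IFNGR1 and IFNLR1 fell, the chain IFNGR2 rose, and the 3 kinases were not called. SOCS1 was 2.09-fold higher and IFNLR1 2.21-fold lower in shHNRNPC cells, while IFNAR1, IFNGR1 and IFNGR2 moved by 1.35-fold or less. In the deposited counts 9 of the 10 genes passed the filter on low counts, 2 of them were called higher and 3 lower by edgeR's quasi-likelihood test at an adjusted p under 0.05. Over all 11831 tested genes 29.8% were called higher and 31.3% lower, 61.1% in all, so 5 of 9 is close to the share of all genes. Groups did not overlap in CPM for the same 5 genes, against 64.0% of all tested genes. The median log2 fold change of the 9 genes was -0.03, against -0.0041 over all tested genes. Calls of at least 2-fold were less common, at 1.87% of tested genes for higher and 1.58% for lower, and SOCS1 and IFNLR1 were among them. Offsets for the GC content and length of the transcript were fitted to the fold changes between these same groups. They can therefore remove a real change that follows GC content or length as well as a technical one. With these offsets SOCS1 was 1.76-fold higher, under 2-fold. The calls of IFNGR1 and IFNGR2 ended with the offsets, and TYK2 was then called lower. The IFNLR1 value rests on few reads.

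**Figure D1:**
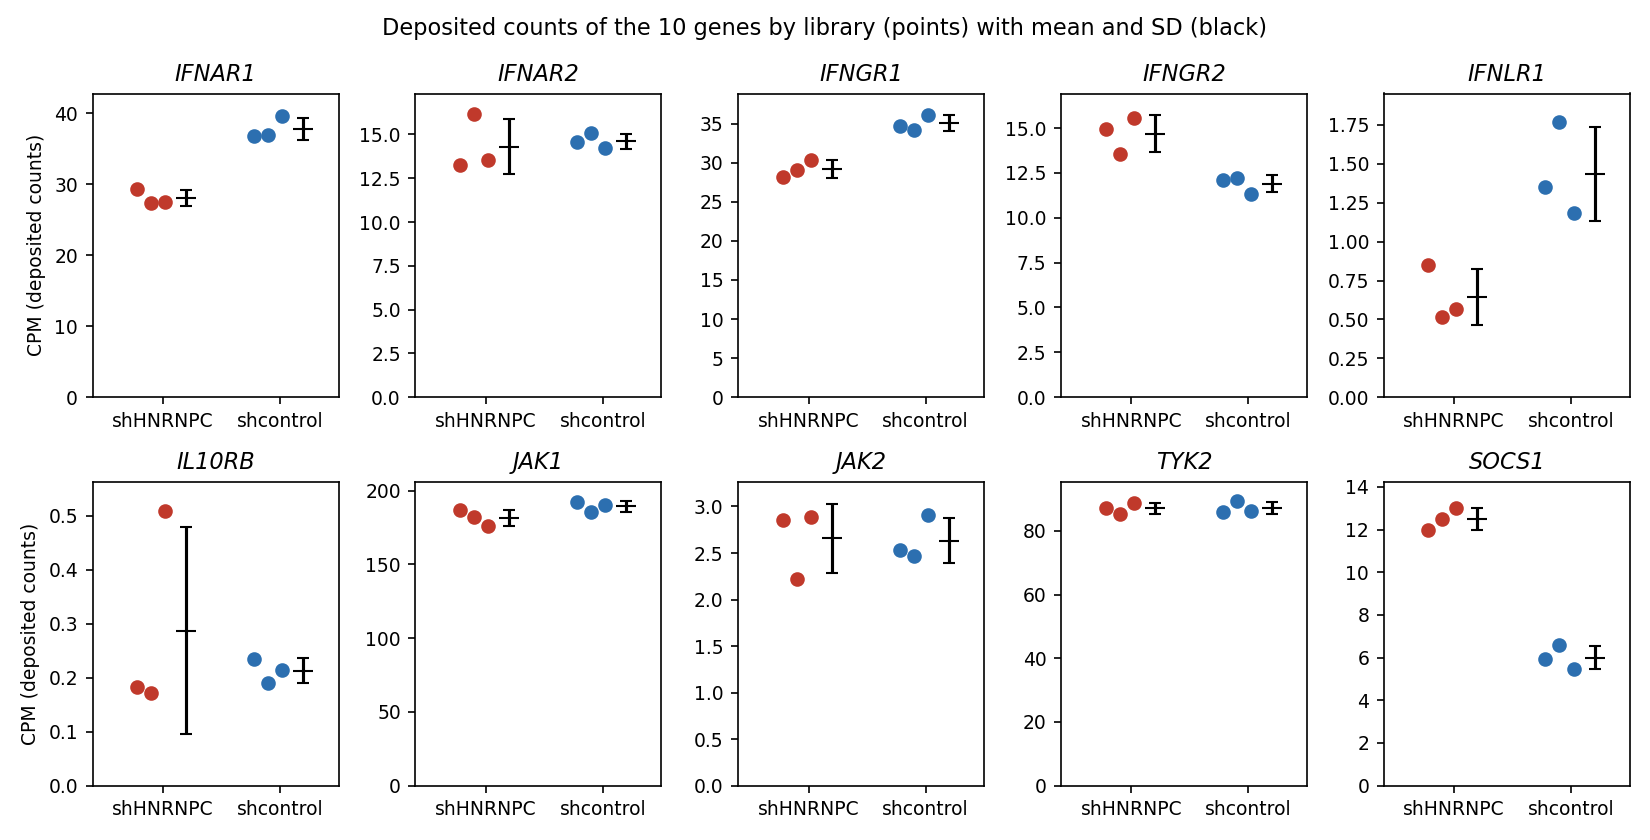
Level of each of the 10 genes in CPM of the deposited counts (vertical axis, starting at 0, scaled by edgeR's TMM factors) in the 3 shHNRNPC libraries (red) and the 3 shcontrol libraries (blue), with the mean and SD in black. The groups stand apart for IFNAR1, IFNGR1, IFNGR2, IFNLR1 and SOCS1 and overlap for the other 5, and IL10RB lies near 0.2 CPM in all but 1 library.

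For the type I receptor, the TYK2-holding chain was lower and the JAK1-holding chain was not called. IFNAR1 (chromosome 21, 33324904 to 33359862, plus strand) had 29.3, 27.4 and 27.5 CPM in the shHNRNPC libraries, against 36.8, 37.0 and 39.6 CPM in the shcontrol libraries. Every shHNRNPC library lay below every shcontrol library. The log2 fold change was -0.43 (SE 0.062, edgeR adjusted p = 6.49e-08), so that IFNAR1 fell by 25.8%. Gene by gene offsets for the GC content and length of the transcript brought it to -0.17 (edgeR adjusted p = 0.0165), still called. IFNAR2 (chromosome 21, 33230136 to 33264525, plus strand) had 13.3, 16.1 and 13.5 CPM in the shHNRNPC libraries, against 14.6, 15.1 and 14.2 CPM in the shcontrol libraries. The groups overlapped, with 1 shHNRNPC library above and 2 below all shcontrol libraries. Its log2 fold change was -0.03 with a 95% interval of -0.21 to 0.16 (edgeR adjusted p = 0.812). The interval does not reach the log2 fold changes of IFNGR1 or IFNGR2, and does not show that IFNAR2 was the same in both groups.

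For the type II receptor the chains moved in opposite directions. IFNGR1 (chromosome 6, 137197497 to 137219028, minus strand), the ligand-binding chain, had 28.1, 29.04 and 30.4 CPM in the shHNRNPC libraries, against 34.7, 34.2 and 36.2 CPM in the shcontrol libraries. IFNGR2 (chromosome 21, 33402896 to 33437521, plus strand), the chain needed for signalling, had 14.97, 13.6 and 15.6 CPM in the shHNRNPC libraries, against 12.1, 12.2 and 11.4 CPM in the shcontrol libraries. Neither gene's groups overlapped: IFNGR1 was lower and IFNGR2 higher in every shHNRNPC library. IFNGR1 had a log2 fold change of -0.26 (SE 0.062, edgeR adjusted p = 2.88e-04). IFNGR2 had a log2 fold change of 0.31 (SE 0.094, edgeR adjusted p = 0.00429). Both calls ended with the GC and length offsets, which gave log2 fold changes of -0.07 (edgeR adjusted p = 0.373) for IFNGR1 and 0.14 (edgeR adjusted p = 0.212) for IFNGR2. The GC content of the longest coding transcript was 40.2% for IFNGR1 and 55.0% for IFNGR2.

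For the type III receptor, IFNLR1 was the lowest of the 9 tested genes by level per length and fell in shHNRNPC cells. IFNLR1 (chromosome 1, 24157130 to 24187248, minus strand), the chain particular to lambda interferon, had 14, 9 and 10 reads in the shHNRNPC libraries, against 23, 28 and 22 reads in the shcontrol libraries. No shHNRNPC library reached the lowest shcontrol library. It had 0.644 ± 0.182 CPM in shHNRNPC cells and 1.44 ± 0.303 CPM in shcontrol cells (SD, n = 3 each), or -1.15 as a log2 fold change (SE 0.343, edgeR adjusted p = 0.00360). At 106 reads in all 6 libraries the 95% interval was wide, from -1.84 to -0.46. It had 10 or more reads in 2 of the 3 shHNRNPC libraries and all 3 shcontrol libraries, so its place among the tested genes leaned on the group where it is higher.

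IL10RB (chromosome 21, 33266358 to 33297234, plus strand), the partner chain of IFNLR1, had 3, 3 and 9 reads in the shHNRNPC libraries, against 4, 3 and 4 reads in the shcontrol libraries. With 26 reads in all 6 libraries it was left out of the test by the filter on low counts, and the groups overlapped. These reads cannot be taken as its level. Other columns of the deposited table, not used here, list IL10RB at a far higher level. A large part of its exon bases is also shared with another gene, as described next. No level or ratio is therefore drawn from these reads.

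Of the 10 genes 4, IFNAR2, IL10RB, IFNAR1 and IFNGR2, sit within 207 kb on chromosome 21, and the first 2 of them share exons with a further gene. In GENCODE 29 the gene AP000295.1 (GRCh38, chromosome 21, 33229901 to 33297160, plus strand), annotated as protein coding, starts at the first base of IFNAR2 and runs through IL10RB. It shares 2038 exon bases with IFNAR2, or 44.2% of that gene's exon bases, and 1732 with IL10RB, or 38.1%. Within the span that the deposited table gives each gene, the shared bases were 55.8% of the exon bases of IFNAR2 and 68.1% of those of IL10RB. IL10RB-DT on the opposite strand covers another 1803 exon bases of IFNAR2, or 39.1%. IFNAR1 shares no exon bases with another gene, and IFNGR2 shares 380, or 12.8%, with TMEM50B on the opposite strand. Reads from shared exons cannot be told apart by gene, so the IL10RB and IFNAR2 counts can lack reads of their own gene or include reads of AP000295.1, a gene not used here. In the whole deposited table, 496 genes shared at least as large a part of their exon bases with a gene on the same strand as IL10RB does, and 51.6% of them were left out by the filter, against 23.2% of the other 15102. Their median was 53.0 reads over the 6 libraries, against 1534 reads for the others. These sets were not matched for type of gene. IFNAR2, with the larger shared part of 44.2%, was tested, at 740 reads in the shHNRNPC libraries and 750 in the shcontrol libraries. The part of shared exons in the low IL10RB count was not tested, and the use of strand in the authors' counting is not given in the sources used here.

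**Figure D2:**
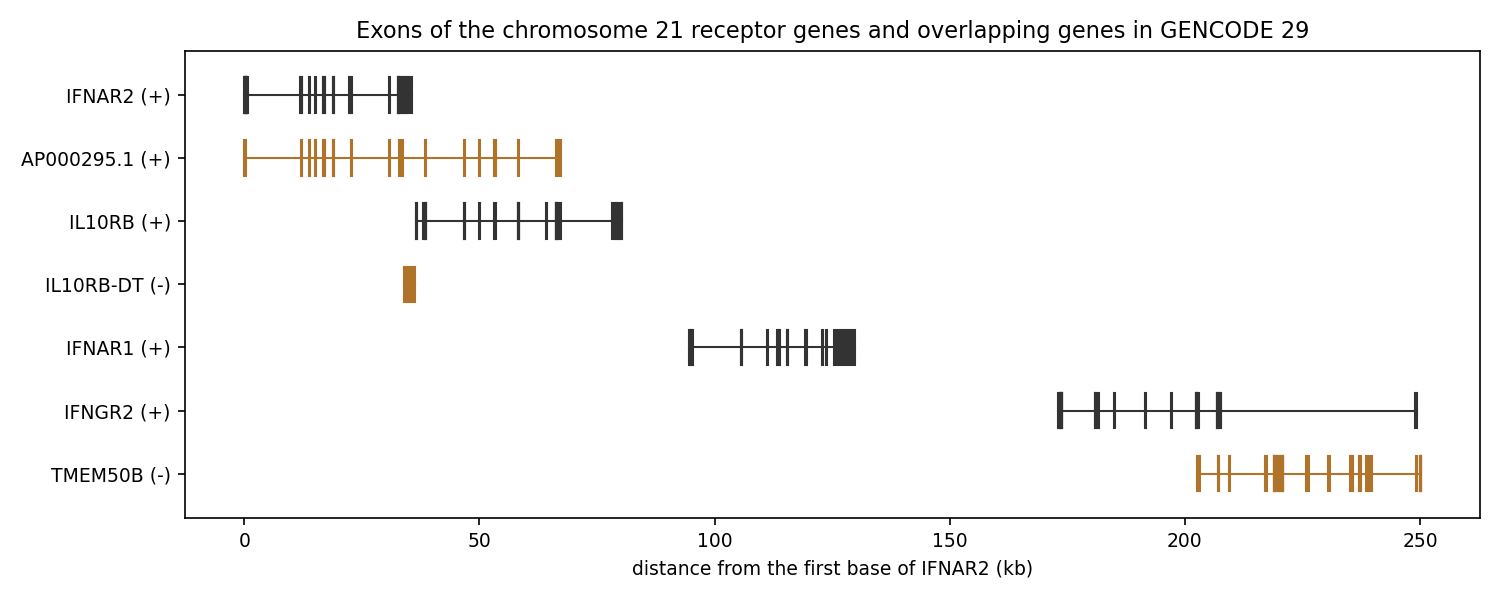
Exons (boxes) of the chromosome 21 receptor genes (black) and of genes that overlap them in GENCODE 29 (brown), along the distance in kilobases from the first base of IFNAR2. The exons of AP000295.1 line up with exons of IFNAR2 and IL10RB, while IFNAR1 stands alone.

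Within 1 Mb on either side of the cluster 18 further genes were listed and 12 tested, of which 2 were called higher and 5 lower, close to the 61.1% called over all tested genes. Their median log2 fold change was -0.16, against -0.0041 over all tested genes. GART, an enzyme of purine synthesis, had a log2 fold change of 0.21 (edgeR adjusted p = 1.37e-09) and the mitochondrial ribosomal protein gene MRPS6 one of 0.13 (edgeR adjusted p = 0.0143). The sodium and inositol cotransporter SLC5A3, which overlaps MRPS6 so that their reads may not be told apart, was lower by the widest margin among the 12, with a log2 fold change of -1.20 (edgeR adjusted p = 4.93e-20) and one of -0.75 with the GC and length offsets. PAXBP1, ITSN1, URB1 and SON were also lower, with log2 fold changes of -0.75, -0.63, -0.40 and -0.16. With the GC and length offsets the call for SON ended, at -0.06 (edgeR adjusted p = 0.0533), and MRPS6 had the opposite sign, at -0.05 (edgeR adjusted p = 0.373). The MRPS6 call also ended without shcontrol library NC_3 or NC_3_3, with adjusted p-values of 0.0527 and 0.0693 by edgeR. It ended as well when libraries were scaled by their totals alone (edgeR adjusted p = 0.0958), by DESeq2 (adjusted p = 0.0509) and against a 1.2-fold change. Against a 1.2-fold change the calls of GART and SON ended too.

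None of the 3 kinases was called. JAK1 (chromosome 1, 64833229 to 64966504, minus strand), which serves the receptors for all 3 classes of interferon, had 187, 182 and 176 CPM in the shHNRNPC libraries, against 192, 185 and 191 CPM in the shcontrol libraries. The groups overlapped by 1 library. The log2 fold change was -0.06 (SE 0.030, edgeR adjusted p = 0.0715), with a 95% interval of -0.12 to -0.0013. JAK1 was called lower when libraries were scaled by their totals alone, with a log2 fold change of -0.10 (edgeR adjusted p = 0.00295). It was also called lower without shHNRNPC library SI_3 (log2 fold change -0.083, edgeR adjusted p = 0.0372) or without shcontrol library NC_3_2 (-0.077, edgeR adjusted p = 0.0413). With the GC and length offsets its log2 fold change was 0.0098, and it was not called.

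TYK2 (chromosome 19, 10357385 to 10380525, minus strand), the kinase held by IFNAR1 and IL10RB, had 87.0, 85.3 and 88.8 CPM in the shHNRNPC libraries, against 85.8, 89.5 and 86.2 CPM in the shcontrol libraries. The groups overlapped. Its log2 fold change had a 95% interval of -0.081 to 0.079 (edgeR adjusted p = 0.979), the narrowest after JAK1. With the GC and length offsets TYK2 was called lower, with a log2 fold change of -0.09 (edgeR adjusted p = 0.0409), from a transcript with a GC content of 61.3%. JAK2 (chromosome 9, 4985245 to 5128183, plus strand), the kinase held by IFNGR2, had 47, 39 and 51 reads in the shHNRNPC libraries, against 43, 39 and 54 reads in the shcontrol libraries. The groups overlapped. At this depth the 95% interval of its log2 fold change was wide, from -0.41 to 0.43 (edgeR adjusted p = 0.983). That interval holds the IFNGR2 log2 fold change of 0.31 and ends just short of the IFNAR1 one of -0.43. It does not show that JAK2 was the same in both groups. With the GC and length offsets its log2 fold change was 0.35 (edgeR adjusted p = 0.150).

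SOCS1 was the gene that rose most. SOCS1 (chromosome 16, 11254405 to 11256179, minus strand) had 197, 219 and 230 reads in the shHNRNPC libraries, against 101, 104 and 102 reads in the shcontrol libraries. Scaled to depth this was 11.99, 12.5 and 13.01 CPM in the shHNRNPC libraries, against 5.94, 6.58 and 5.49 CPM in the shcontrol libraries. The lowest shHNRNPC library lay well above the highest shcontrol library. The log2 fold change was 1.06 (SE 0.114, edgeR adjusted p = 4.02e-11), with a 95% interval of 0.83 to 1.29. With the GC and length offsets it was 0.81 (edgeR adjusted p = 4.91e-08), from a transcript with a GC content of 69.1%. The authors' deposited table gives SOCS1 a log2 fold change of 1.07.

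**Figure D3:**
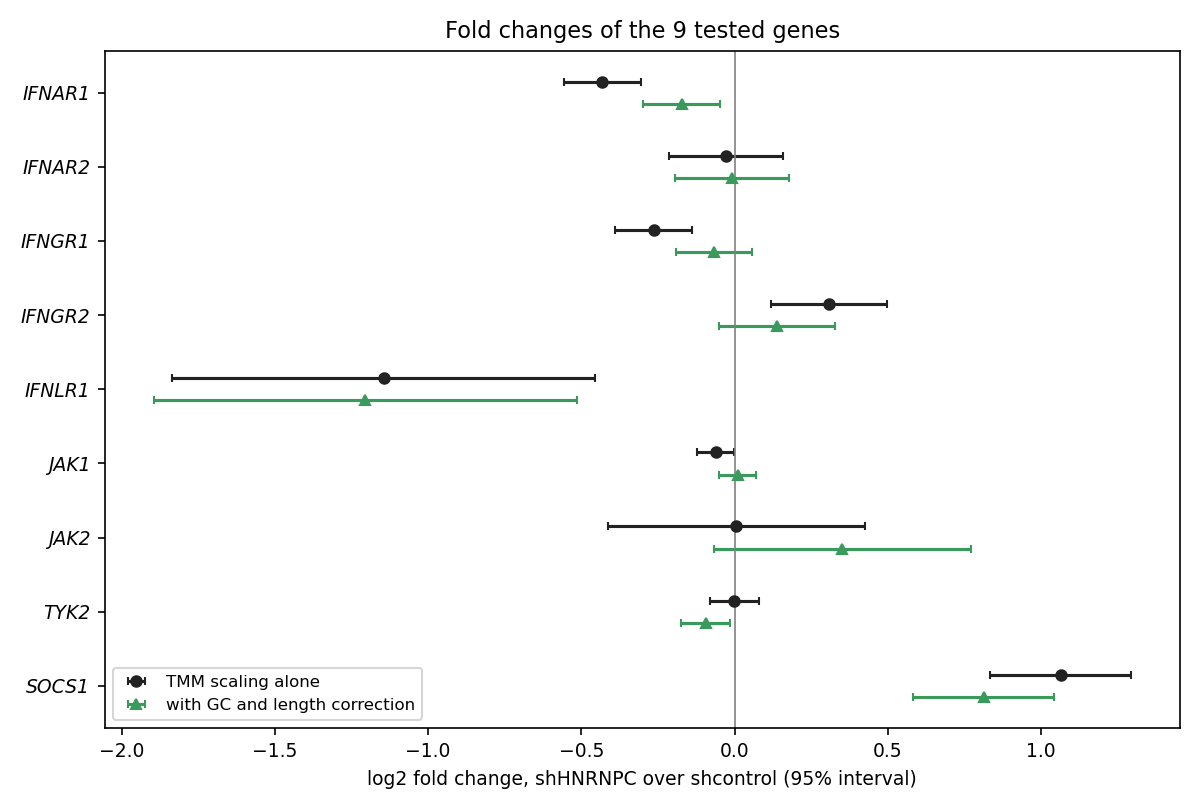
Log2 fold change of shHNRNPC over shcontrol (horizontal axis) with its 95% interval for each of the 9 tested genes, from edgeR on the deposited counts with TMM scaling alone (black circles) and with offsets for GC content and length (green triangles). SOCS1 and IFNLR1 lie farthest from 0 either way, IFNAR1 stays below 0, and with the offsets the intervals of IFNGR1 and IFNGR2 reach across 0.

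The genes nearest to SOCS1 and IFNLR1 in their pattern were found by Euclidean distance over the 6 log2 CPM values, each set relative to the gene's own shcontrol mean. TRANK1, C1R, which encodes a complement protease, and TAPBPL, which encodes a relative of tapasin, were nearest to SOCS1, at distances of 0.122, 0.132 and 0.148. Their log2 fold changes were 1.08, 1.05 and 1.004. A small distance of this kind requires a fold change near that of the gene compared, so such values follow from the choice. DENND2C, ATAD2B and FGF13 were nearest to IFNLR1, at the larger distances of 0.390, 0.411 and 0.420, with log2 fold changes of -0.96, -1.25 and -1.09. With the GC and length offsets these were -0.65, -0.89 and -0.64, while that of IFNLR1 was -1.21.

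Because a ratio within a library does not depend on library scaling, the chains and kinases were also set against each other. The 5 ratios were tested by exact two-sided permutation over the 6 libraries. An effect of GC content or length that differs between the genes of a ratio does not cancel. The offsets that ended the calls of IFNGR1 and IFNGR2 were not applied to the ratios. With 3 libraries a group the smallest p this test can give is 0.1, or 0.167 adjusted over the 5 ratios, so none could pass 0.05. The ratio of IFNGR1 to IFNGR2 reads was 1.88, 2.14 and 1.95 in the shHNRNPC libraries, against 2.87, 2.80 and 3.18 in the shcontrol libraries (exact p = 0.1). The groups did not overlap, and the mean was 1.99 ± 0.134 in shHNRNPC cells and 2.95 ± 0.206 in shcontrol cells (SD, n = 3 each). The ratio of IFNAR1 to IFNAR2 reads was 1.98 ± 0.262 in shHNRNPC cells and 2.59 ± 0.176 in shcontrol cells (SD, n = 3 each, exact p = 0.1), again without overlap. This ratio carries the limit on the IFNAR2 reads, whose gene shares exons with AP000295.1 as given above. The ratio of IFNLR1 to IL10RB is not given, for the reasons stated with IL10RB. For the kinases the groups overlapped: the ratio of JAK2 to JAK1 reads was 0.0147 ± 0.00218 in shHNRNPC cells and 0.0139 ± 0.00116 in shcontrol cells (exact p = 0.8), and that of TYK2 to JAK1 was 0.480 ± 0.022 in shHNRNPC cells and 0.461 ± 0.020 in shcontrol cells (exact p = 0.4, n = 3 each).

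Levels per length were compared between the 9 tested genes as CPM by library totals, without the TMM factors, divided by the kilobases of annotated exon. In shHNRNPC cells the order of these levels was JAK1 at 28.3 ± 0.799, TYK2 at 12.7 ± 0.274, IFNGR1 at 8.78 ± 0.360, SOCS1 at 6.86 ± 0.294, IFNGR2 at 4.897 ± 0.345, IFNAR1 at 4.39 ± 0.166, IFNAR2 at 3.06 ± 0.338, JAK2 at 0.425 ± 0.060 and IFNLR1 at 0.129 ± 0.036 (SD, n = 3). In shcontrol cells it was JAK1 at 30.4 ± 0.519, TYK2 at 13.04 ± 0.326, IFNGR1 at 10.8 ± 0.315, IFNAR1 at 6.08 ± 0.256, IFNGR2 at 4.07 ± 0.161, SOCS1 at 3.39 ± 0.313, IFNAR2 at 3.21 ± 0.097, JAK2 at 0.433 ± 0.039 and IFNLR1 at 0.296 ± 0.063 (SD, n = 3). SOCS1 stood above IFNGR2 and IFNAR1 in shHNRNPC cells and below both in shcontrol cells. Neighbours in the order whose libraries overlapped were IFNGR2 and IFNAR1 in shHNRNPC cells, and SOCS1 and IFNAR2 in shcontrol cells. Per kilobase of the longest coding transcript, SOCS1 and IFNAR2 changed places in shcontrol cells and every other place was kept in both groups. JAK1, shared by all 3 receptor classes, was the most abundant in both groups, while JAK2, used by the gamma receptor, and IFNLR1, the chain particular to lambda interferon, were under 1 on this scale. The place of IFNAR2 carries the limit on shared exons given above.

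**Figure D4:**
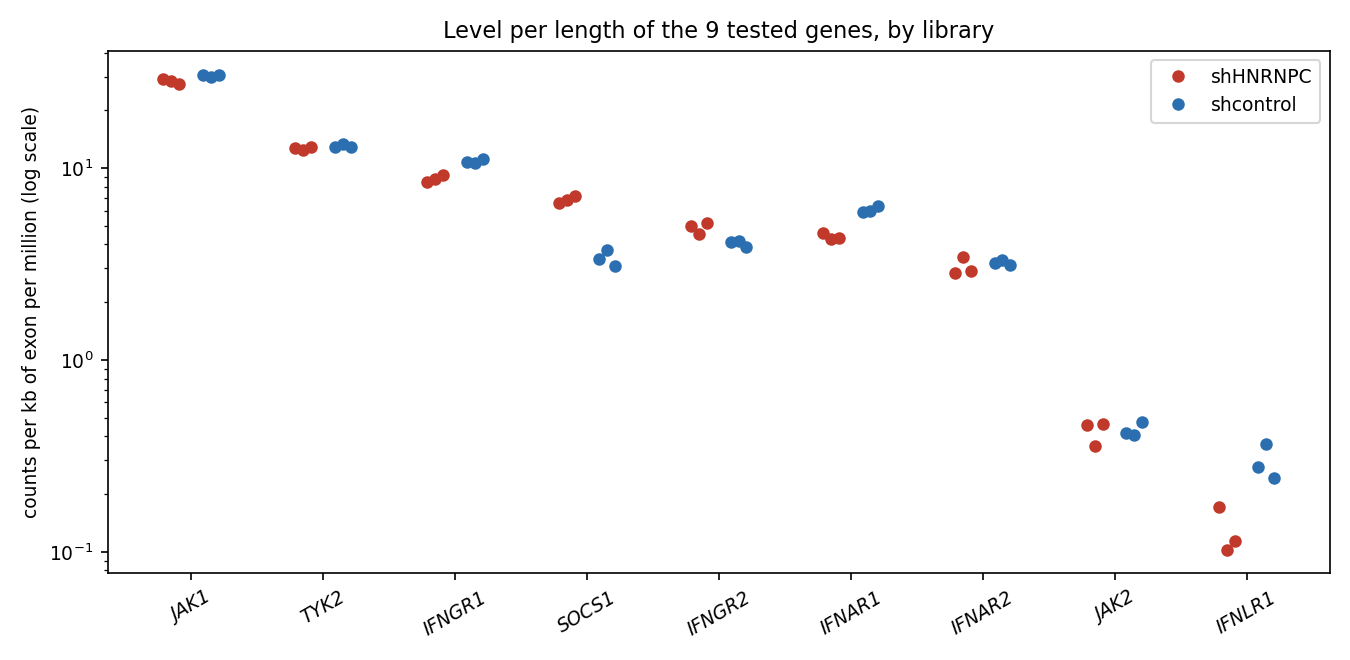
CPM by library totals per kilobase of annotated exon (vertical axis, log scale) of the 9 tested genes in each of the 3 shHNRNPC libraries (red, left) and 3 shcontrol libraries (blue, right), in the order of the shHNRNPC mean. JAK1 is highest in both groups, SOCS1 lies above IFNAR1 in the shHNRNPC libraries and below it in the shcontrol libraries, and JAK2 and IFNLR1 lie under 1.

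Around these 10 genes, 8 lists of ligands, signal transducers and regulators of the same pathway held 69 different tested genes, of which 33 were called higher and 25 lower, with a median log2 fold change of 0.09. Over all tested genes 29.8% were called higher and 31.3% lower, or 61.1% in all, with a median of -0.0041, and these shares are the background for each list count that follows. Among 22 interferon genes searched, 5 were listed and 1, IFNL1, a ligand of IFNLR1 and IL10RB, was tested. IFNL1 had 27, 31 and 17 reads in the shHNRNPC libraries, against 1, 11 and 10 reads in the shcontrol libraries, and a log2 fold change of 1.75 (SE 0.412, edgeR adjusted p = 2.96e-04). The groups did not overlap, on few reads. As with IFNLR1, the place of IFNL1 among the tested genes leaned on the group where it is higher, here shHNRNPC. IFNB1, the type I interferon made by most cell types, had 9, 10 and 9 reads in the shHNRNPC libraries, against 2, 2 and 3 reads in the shcontrol libraries, and was left out by the filter. Without the filter IFNB1 was called higher, with a log2 fold change of 1.94 (edgeR adjusted p = 0.0132), and by DESeq2 with one of 2.001 (adjusted p = 0.0389). A filter at a mean of 1 CPM left out IFNL1 too, so that no ligand was tested. IL24, a cytokine of the IL-10 family that signals through IL22RA1 or IL20RA, was lower with a log2 fold change of -0.79 (SE 0.265, edgeR adjusted p = 0.00907), the 1 tested gene of that list, which also held JAK3 at 0 to 4 reads a library. The IL24 call ended without shcontrol library NC_3, where its log2 fold change was -0.61 (edgeR adjusted p = 0.0828), and by DESeq2 (adjusted p = 0.0533).

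**Figure D5:**
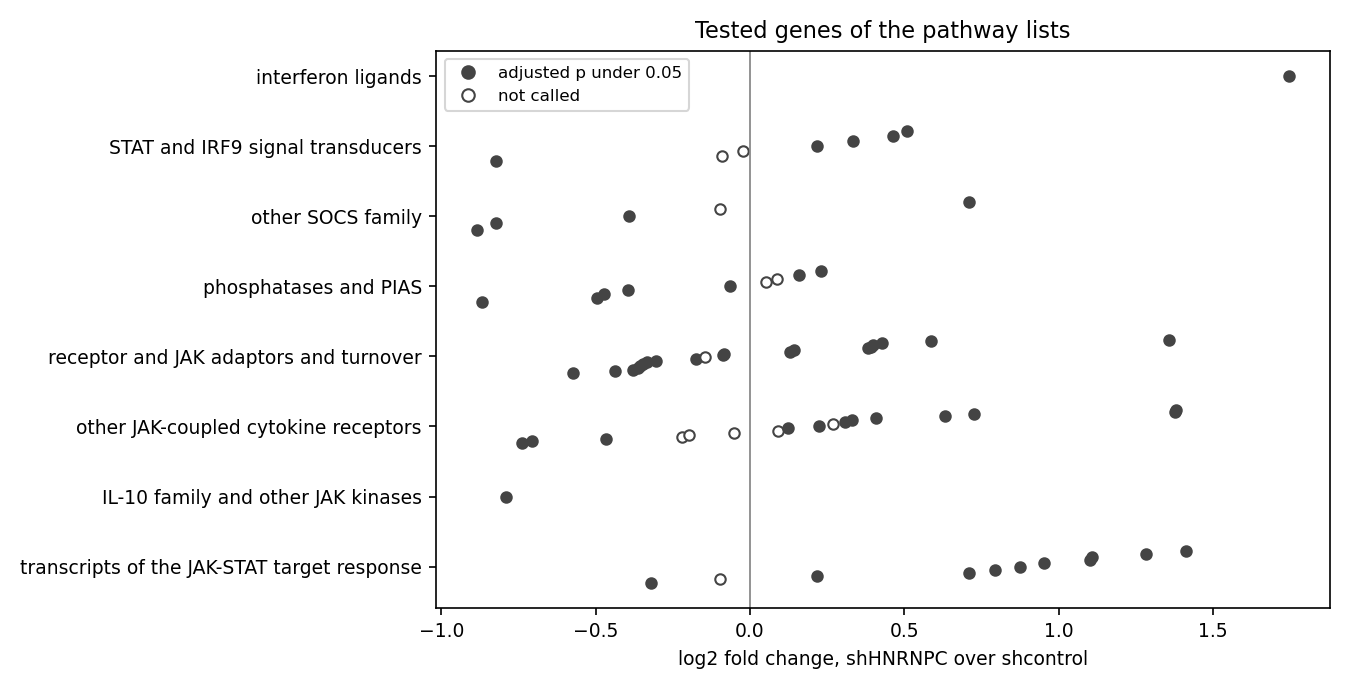
Log2 fold change of shHNRNPC over shcontrol (horizontal axis) of every tested gene of the 8 pathway lists, 1 point a gene, filled where the edgeR adjusted p was under 0.05. Most genes of the JAK-STAT target response lie to the right of 0, while the other SOCS family, phosphatases and adaptors lie on both sides.

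Of the STAT genes 7 were tested, with 4 called higher and 1 lower and a median log2 fold change of 0.22. STAT2, used by the type I and type III receptors, had a log2 fold change of 0.51 (edgeR adjusted p = 1.00e-15). STAT6, which serves IL-4 and IL-13, had 0.46 and STAT5B, which serves growth hormone and IL-2 family cytokines, -0.82. Of 11 genes that STATs are known to switch on, 9 were called higher and 1 lower, with a median of 0.87, and ISG15, MX1, OAS1 and IFI6 had log2 fold changes of 1.28, 0.95, 1.10 and 1.41. These 4 are known interferon targets.

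Of 5 tested relatives of SOCS1, SOCS3 was called higher and SOCS4, SOCS5 and SOCS6 lower, with a median of -0.39, beside 61.1% of all tested genes called. SOCS3, which inhibits signalling through the IL-6 receptor chain gp130, had 28.03 ± 1.07 CPM in shHNRNPC cells and 17.2 ± 1.68 CPM in shcontrol cells (SD, n = 3 each), a log2 fold change of 0.71 (edgeR adjusted p = 5.49e-11). SOCS5 had a log2 fold change of -0.88 (edgeR adjusted p = 1.36e-09) and SOCS4 one of -0.82 (edgeR adjusted p = 3.70e-10), and SOCS6 had -0.39. The GC and length offsets brought SOCS5 to -0.51 and SOCS4 to -0.36, both still called, and ended the call for SOCS6.

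Of 9 tested phosphatases and PIAS proteins, which dephosphorylate or block JAK and STAT proteins, 2 were called higher and 5 lower, with a median of -0.06. PTPN11, the phosphatase SHP2, had a log2 fold change of -0.87 (edgeR adjusted p = 2.66e-21) and PTPN2, which dephosphorylates JAK1, -0.47 (edgeR adjusted p = 2.58e-09). PIAS1 and PIAS2 had -0.40 and -0.50. The GC and length offsets brought PTPN2 to -0.22, still called, and ended the calls of PIAS1 and PIAS2. Of 20 tested adaptor and turnover genes 8 were called higher and 11 lower, with a median of -0.12. USP18, which binds IFNAR2 and blocks its signalling, had 199 ± 7.55 CPM in shHNRNPC cells and 77.4 ± 0.894 CPM in shcontrol cells (SD, n = 3 each), a log2 fold change of 1.36 (edgeR adjusted p = 2.58e-33); its near-identical copy USP41 can share reads with it. PRKD2, a kinase that promotes uptake of IFNAR1 from the surface, had 0.58, ELOC, a part of the ubiquitin ligase that SOCS proteins recruit, 0.38, and the ubiquitin ligase CBL -0.36, or -0.19 with the offsets.

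Other receptors that use JAK kinases were listed for 28 of 37 genes and tested for 17, with 9 called higher and 3 lower and a median of 0.22. IL22RA1, the partner of IL10RB in the IL-22 receptor, had 140, 143 and 129 reads in the shHNRNPC libraries, against 55, 47 and 56 reads in the shcontrol libraries. The groups stood far apart, with a log2 fold change of 1.37 (SE 0.150, edgeR adjusted p = 6.28e-11). IL6R, which binds IL-6, had a log2 fold change of 0.73 (edgeR adjusted p = 3.57e-21), and IL6ST, which encodes its signalling partner gp130, -0.74 (edgeR adjusted p = 1.60e-15). IL7R, the chain for IL-7, had -0.47 (edgeR adjusted p = 1.57e-12). With the GC and length offsets IL6ST had -0.27 and IL7R -0.21, both still called. IL10RA, the partner of IL10RB in the IL-10 receptor, had 0 to 4 reads a library and was left out by the filter.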

How the data were processed

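Total RNA of MHCC97H cells was sequenced from 3 shHNRNPC and 3 shcontrol samples. STAR, HTSeq 0.6.0 and DESeq2 appear in the submitters' processing notes, with no genome build, annotation or use of strand given in the sources used here. The count columns are as deposited by the authors: whole reads per gene with no normalisation. From the authors' own comparison a log2 fold change and a p-value column were deposited, of which the log2 fold change of SOCS1 was copied. Columns were assigned to groups by their SI and NC names, whose suffixes do not give a sample's replicate number. A further 24 columns of library values were not used.

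Counts were tested in R 4.3.3 with edgeR 4.0.16 (filterByExpr, TMM, quasi-likelihood test, Benjamini-Hochberg over all 11831 tested genes, threshold 0.05). CPM in the text are scaled by the TMM factors, and levels per kilobase, planned in another deposited unit, use library totals and GENCODE 29 exon lengths. Alternatives were other scalings and filters, DESeq2 1.42.0, limma-voom (limma 3.58.1), leaving out each library, a 1.2-fold threshold, a replicate block, and offsets for GC content and length of the longest coding transcript in GENCODE 29. For these offsets the log2 fold changes of the tested genes were fitted by GC content and length of the transcript. The fitted values were applied to the shHNRNPC libraries. The fits were tested on simulated data.

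The 10 genes, the pathway lists and the tests were chosen with earlier results of these data known. Named genes were the 10, HNRNPC, up to 4 called genes with the smallest adjusted p of each list, the tested genes around the chromosome 21 cluster, and the 3 genes nearest in pattern to the called genes with the highest and lowest fold change. Precision is limited by depth, and intervals cover the spread between these libraries only. A gene that this rule names is not reported here.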

Additional observations from a re-analysis of the deposited data

How the results depend on the processing

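SOCS1, IFNAR1 and IFNLR1 kept their direction and their call under all 16 alternatives run for single genes, with log2 fold changes of 0.81 to 1.13 for SOCS1, -0.47 to -0.17 for IFNAR1 and -1.39 to -0.98 for IFNLR1. Genes called higher among the 10 numbered 1 with the GC and length offsets and 1 against a 1.2-fold change, where 2959 genes in all were called in place of 7228. The median of the 9 genes was -0.068 with library size alone and -0.065 to -0.032 without each library in turn. Among the chromosome 21 neighbours 1 was called higher with library size alone, DESeq2 or the offsets, and 1 to 2 without each library. Their median was -0.20 with library size alone, -0.118 without the filter, -0.117 by DESeq2, -0.054 with the offsets, and -0.202 to -0.103 without each library. Phosphatases and PIAS genes called higher numbered 1 to 4 over the alternatives. The calls of IFNGR1, IFNGR2, JAK1, TYK2, IL24 and MRPS6 that changed are given with those genes, and the cause was not tested. The median of all genes moved to -0.044 with library size alone, from which JAK1 cannot be told apart. Few reads limit IFNLR1, JAK2, IL10RB and the ligands.

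The column suffixes do not state a pairing, and correlations of same-suffix deviations were -0.10, 0.10 and -0.084. With a replicate block 2 of the 10 genes were called higher and 3 lower, with 7159 genes called in all. With the block and the offsets together 1 was called higher and 3 lower, and the neighbours gave 1 higher call and a median of -0.054.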
